A study of Homo sapiens with 3 samples.

Results

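MUC1, MUC4, MUC13, MUC16 and MUC20, which encode mucins anchored in the cell membrane, and CEACAM1, CEACAM5 and CEACAM6, which encode cell adhesion molecules of the carcinoembryonic antigen family, were measured by microarray in a lung cancer cell line and in its osimertinib-resistant derivatives. These 8 genes, of 43316 on the array, were covered by 14 of its 58200 probes, and every probe whose gene name in the scanner output was one of the 8 symbols was kept. The genes were selected on the ratios of OR1 and OR2 to H1975 measured on these same 3 arrays, so that their values are a description and no test was made of them. Of the 8 genes, 4 (MUC1, MUC4, MUC16 and CEACAM1) were well above background, by the scanner software's call, on all 3 arrays with at least 1 probe, and the probe standing for each of these 4 was lower in both resistant lines than in the parental line, although 1 dim MUC4 probe went the other way in OR2. The other 4 (MUC13, MUC20, CEACAM5 and CEACAM6) were not well above background on any array.

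H1975 is a lung adenocarcinoma cell line that carries an activating mutation of EGFR together with the gatekeeper mutation conferring resistance to earlier EGFR inhibitors. OR1 and OR2 were derived from it by raising the dose of osimertinib, an irreversible inhibitor of mutated EGFR, in steps up to 2 μmol/L for 4 months. The methods call each of them a clone, so that each is a single selection outcome, and state that the lines were not authenticated by the authors. RNA of each line was hybridized to 1 single-colour array, and no line had a replicate.

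Membrane mucins carry a long extracellular domain of serine- and threonine-rich repeats that is densely decorated with O-linked glycans, and together they form part of the glycocalyx at the apical face of airway epithelium. Carcinomas often lose this restriction to the apical face, and MUC1 and MUC4 can then associate with receptors of the EGFR family. CEACAM proteins are immunoglobulin-like molecules that bind each other between cells. CEACAM1 spans the membrane and, in its long form, recruits phosphatases, whereas CEACAM5, the carcinoembryonic antigen measured in serum, and CEACAM6 are held by a lipid anchor.

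Intensities are the scanner software's values in arbitrary units, corrected for background within the array. Ratios to H1975 were formed after dividing each array by its 75th percentile, which lay at 157, 138 and 162 for H1975, OR1 and OR2. A ratio of at least 2 was counted as up-regulated and a ratio of at most 0.5 as down-regulated. Where a probe was well above background on a single side only, the dim side was set to the lowest intensity called well above background on its array (12.6, 11.4 and 12.6) or to its own value if higher, and the ratio is a bound. The technical SD of a log2 ratio was propagated from the error that the scanner software gives each spot, and covers the measurement of 1 RNA sample, not the variation between cultures. Levels of different probes are not comparable, and each probe was read only against itself across the lines. The sums over marker lists are an exception, and they follow the brightest probes of a list. In cells measured in bulk, fewer cells with a transcript and less RNA per cell cannot be told apart.

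The arrays were alike in the measures of quality, with 45.6 to 45.9% of probes well above background, no saturated spot and a median SD of 0.052 to 0.055 on the log2 scale between repeated spots of a probe. Markers of the labelled cell type were present, and all 6 epithelial markers were well above background in each line. Their scaled intensities summed to 2480, 1071 and 1064 in H1975, OR1 and OR2, a sum carried mostly by KRT7, KRT18 and KRT19. CDH1, EPCAM, KRT7 and KRT19 were down-regulated in both resistant lines, beside 6.32% of all genes. KRT19, with ratios of 0.463 and 0.492, lost this call under 5 alternatives, and KRT8 (1.12 and 0.964) and KRT18 (0.884 and 0.806) were not past the ratio in either line. NKX2-1, the lineage factor of lung adenocarcinoma, read 832, 184 and 1167 in that order, whereas the surfactant gene SFTPC read 24.0, 79.6 and 120 and was up-regulated in both lines with ratios of 3.78 and 4.87, a call lost with normexp correction. NAPSA was past the ratio in neither line, and SFTPA1 and SFTPB were dim on all 3 arrays. Of markers of other cell types, the summed level was 4.29, 4.98 and 0.663 for 7 fibroblast genes, 2.02, 7.62 and 11.4 for 7 leukocyte genes and 0.565, 0.709 and 0.642 for 3 endothelial genes, in the same order of lines. Of the fibroblast genes, COL1A1 read 461, 585 and 86.8, COL1A2 read 199.7, 28.3 and 5.65 and was down-regulated in both lines, and LUM read 2.50, 59.8 and 2.53, while THY1, DCN, COL3A1 and PDGFRA were dim throughout. PTPRC stayed at 20.5 to 21.0, and the rise of the leukocyte sum went with CD14 (264, 984 and 1779). The part of these differences in the mucin and CEACAM values was not tested.

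The 60-base probes that carry the membrane mucin values are shown first, because several of them read repeats. For MUC4, 3 of the 4 probes read repeated sequence and share a run of 12 bases, given in capitals. In these 3 probes, 10 or 11 of the 12 letters that can be compared at a spacing of 48 bases are the same, against 2 of 12 in the remaining MUC4 probe. In the probes of the other members, 1 to 8 of the 12 letters are the same. Probes A_24_P239176 and A_24_P239177 have 40 consecutive bases in common and are not independent readings.
MUC4 A_24_P239176: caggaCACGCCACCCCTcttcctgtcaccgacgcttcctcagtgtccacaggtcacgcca
MUC4 A_24_P239177: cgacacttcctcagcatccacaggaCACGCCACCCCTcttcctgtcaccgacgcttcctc
MUC4 A_33_P3417281: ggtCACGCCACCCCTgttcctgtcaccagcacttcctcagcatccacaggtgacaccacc
MUC4 A_24_P208825: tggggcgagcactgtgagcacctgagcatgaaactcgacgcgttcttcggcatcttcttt
For MUC1 and MUC16, the probes are shown because a bright and a dim probe stand for the same gene.
MUC1 A_23_P137856: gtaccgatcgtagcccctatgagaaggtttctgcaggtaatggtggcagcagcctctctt
MUC1 A_33_P3332215: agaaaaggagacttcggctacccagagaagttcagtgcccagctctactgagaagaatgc
MUC16 A_23_P5211: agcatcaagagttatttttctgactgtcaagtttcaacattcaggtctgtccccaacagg
MUC16 A_33_P3313110: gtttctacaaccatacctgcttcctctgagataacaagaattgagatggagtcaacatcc
No member probe shared a run of 20 bases with a probe of any other gene. Reading of transcripts of other genes was not tested beyond this comparison of probes.

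MUC1, the most widely expressed membrane mucin, was read by probe A_23_P137856 (NM_002456, hg19 chr1:155158652-155159726, a span longer than the probe). It read 2271 ± 227 (scanner error) in H1975, against 479.6 ± 48 in OR1 and 1385 ± 139 in OR2. H1975 was the highest and OR1 the lowest, with OR2 between them. The ratio to H1975 was 0.241 in OR1, a 4.15-fold lower level, and 0.594 in OR2, and the technical SD of either log2 ratio was 0.20. The gaps were 10.1 technical SDs between H1975 and OR1, 3.69 between H1975 and OR2 and 6.37 between OR2 and OR1. With the median over both MUC1 probes, the second of which was dim in the resistant lines, the ratio in OR1 was 0.395. Of the 18591 genes measured on all 3 arrays, 1.67% had a lower ratio in OR1 and 11.7% in OR2. The second MUC1 probe, A_33_P3332215 (NM_001044392, hg19 chr1:155161975-155162034), was well above background in H1975 alone, at 16.6 ± 3.17, and its ratios in OR1 and OR2 were bounded at most at 0.781 and 0.738.

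MUC16, which carries the CA125 antigen and binds mesothelin, had the widest range among the measured members. Probe A_23_P5211 (NM_024690, hg19 chr19:8966801-8968923) read 286 ± 28.7 in H1975, against 16.1 ± 3.16 in OR1 and 166 ± 16.8 in OR2. OR1 lay near the lowest intensity called well above background on its array, far below both other lines. The ratio was 0.0642 in OR1, a 15.6-fold lower level (technical SD 0.32), and 0.565 in OR2 (technical SD 0.21). With normexp correction, the ratio in OR1 was 0.244. Only 0.253% of the genes measured on all 3 arrays had a lower ratio in OR1, against 9.80% in OR2. OR2 was 8.79-fold above OR1, a gap of 9.82 technical SDs. The second probe, A_33_P3313110 (hg19 chr19:9060452-9060511), stayed dim on all 3 arrays and read 8.50, 4.85 and 4.67 in H1975, OR1 and OR2.

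MUC4, a large mucin that can bind ERBB2, was lower to a similar degree in both resistant lines. Probe A_24_P239176 (NM_018406, hg19 chr3:195514760-195514819) read 643 in H1975, against 316 in OR1 and 376 in OR2. The ratios were 0.560 in OR1 and 0.568 in OR2, each with a technical SD of 0.20, and neither passed 0.5. Unscaled, the OR1 ratio was 0.491, and spike-in scaling brought it to 0.368, both past 0.5. The OR2 ratio was 0.584 unscaled and 0.597 with spike-in scaling, so that the likeness of OR1 and OR2 depended on the scaling. H1975 lay 4.09 and 3.98 technical SDs above OR1 and OR2, whereas OR1 and OR2 were 0.11 apart and not distinguishable. The overlapping probe A_24_P239177 (hg19 chr3:195514780-195514839) read 488, 266 and 299 in H1975, OR1 and OR2, with ratios of 0.621 and 0.596. The third repeat probe, A_33_P3417281 (hg19 chr3:195506310-195506369), read 234, 153 and 165, with ratios of 0.747 and 0.687. All 3 repeat probes were thus highest in H1975. The probe outside the repeats, A_24_P208825 (hg19 chr3:195474164-195474223), differed from them, being well above background in OR2 alone, at 20.7, with 8.69 in H1975 and 11.3 in OR1. Its ratio in OR2 was at least 1.60 (technical SD 0.52), so that the probes of MUC4 disagreed in direction in OR2.

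MUC13 and MUC20, the remaining membrane mucins among the 8, each had 1 probe. MUC13, a mucin with EGF-like domains best known from the gut, read 3.41, 3.19 and 3.40 in H1975, OR1 and OR2 (NM_033049, hg19 chr3:124625256-124625315). MUC20, known to bind the receptor MET, read 2.61, 2.66 and 6.68 (NM_001098516, hg19 chr3:195464463-195464522). No value was well above background, and no ratio was formed.

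**Figure D1:**
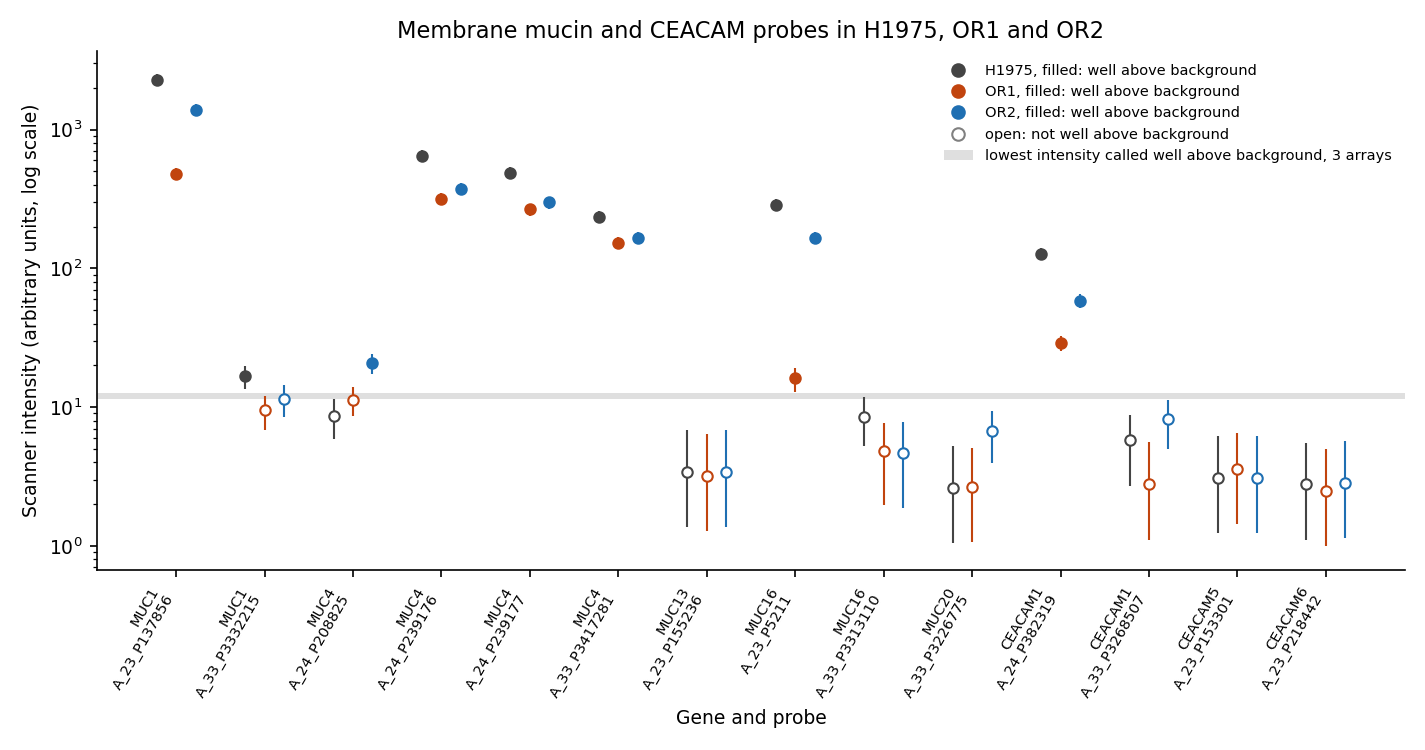
Scanner intensity (arbitrary units, log axis) of the 14 probes of the 8 genes on the arrays of H1975, OR1 and OR2, with bars for the scanner software's error, filled points for probes called well above background and a grey band at the lowest intensity so called. The lower bars of some dim probes are cut short for the log axis. The bright probes of MUC1, MUC16 and CEACAM1 have the order H1975, OR2, OR1 from high to low, and every probe of MUC13, MUC20, CEACAM5 and CEACAM6 lies below the band.

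CEACAM1 was the only one of the 8 genes past the ratio in both resistant lines. Probe A_24_P382319 (NM_001712, hg19 chr19:43011504-43011563) read 127 ± 13.0 in H1975, against 29.0 ± 3.78 in OR1 and 58.5 ± 6.49 in OR2. The order from high to low was H1975, OR2 and OR1, with gaps of 5.32 technical SDs between H1975 and OR2 and 3.18 between OR2 and OR1. The ratio was 0.260 in OR1 (3.85-fold lower, technical SD 0.24) and 0.448 in OR2 (2.23-fold lower, technical SD 0.22). With normexp background correction these ratios were 0.515 and 0.602, and with the median over both CEACAM1 probes 0.378 and 0.786, so that the call in both lines was lost under either. Lower ratios were found for 2.01% of genes in OR1 and 4.93% in OR2.

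The other CEACAM1 probe and the CEACAM5 probe are shown because these genes are related in sequence and both probes were dim.
CEACAM1 A_33_P3268507: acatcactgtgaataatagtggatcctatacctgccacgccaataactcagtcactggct
CEACAM5 A_23_P153301: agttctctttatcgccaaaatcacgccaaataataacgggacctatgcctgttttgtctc
These probes had at most 8 consecutive bases in common. CEACAM1 A_33_P3268507 (NM_001184816, hg19 chr19:43025455-43025514) read 5.75, 2.77 and 8.15 in H1975, OR1 and OR2. CEACAM5 (NM_004363, hg19 chr19:42224984-42225043) read 3.11, 3.60 and 3.11, and CEACAM6 (NM_002483, hg19 chr19:42275434-42275493) read 2.77, 2.49 and 2.84. None of these was well above background in any line. The values of CEACAM5 and CEACAM6 lay near the median of the negative control spots, 2.68 to 2.94, except for CEACAM5 in OR1. There it read 3.60, above the 95th percentile of the negative control spots on that array, 3.15.

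Of the 8 genes, only the 4 measured ones could be counted. Of these 4, 3 (MUC1, MUC16 and CEACAM1) were down-regulated in OR1. The share over the 22418 genes well above background on at least 1 array was 9.34%. In OR2, 1 gene (CEACAM1) was down-regulated, beside 8.41% of all genes, and in both lines 1 gene, beside 6.32%. None was up-regulated, beside 8.95% of all genes in OR1, 7.47% in OR2 and 5.09% in both. Since these ratios chose the genes, nothing is read from the counts. The median ratio of the 4 measured genes was 0.25 in OR1 and 0.567 in OR2, and that of all genes measured on all 3 arrays was 1.02 and 0.964.

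**Figure D2:**
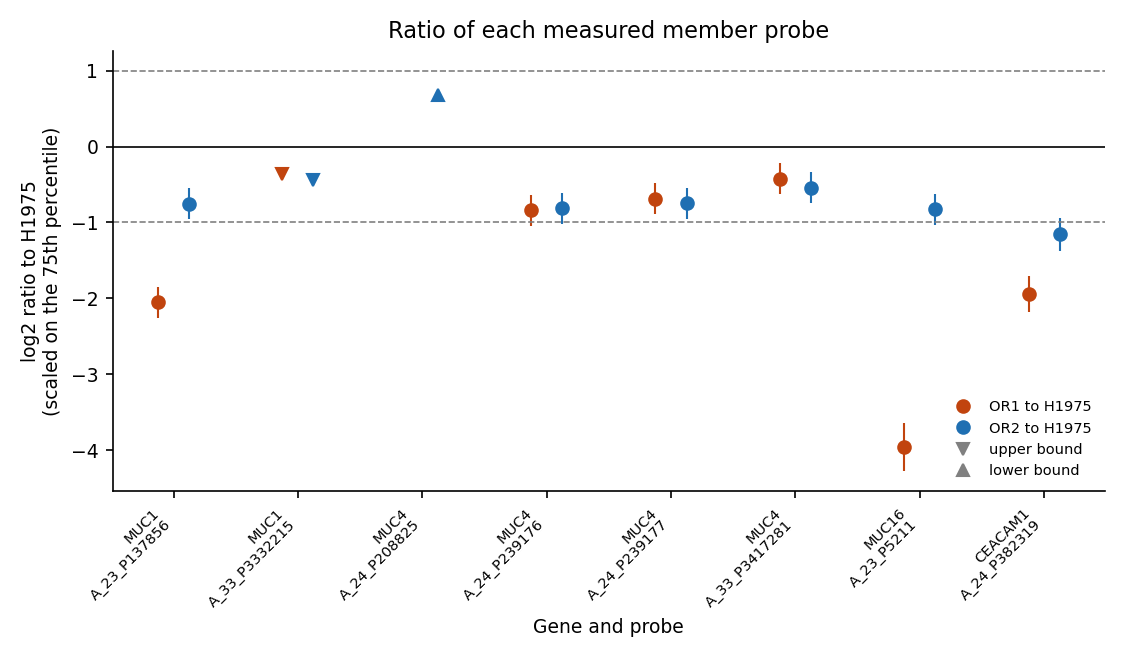
Log2 ratio to H1975 of each member probe well above background on at least 1 array, with bars for the technical SD, triangles for bounds and dashed lines at ratios of 2 and 0.5. MUC16 in OR1 is the lowest point at a ratio of 0.0642, the 3 repeat probes of MUC4 lie together in both lines, and CEACAM1 is the only gene with both points below the lower dashed line.

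The pattern of MUC1 was compared with that of 18520 genes outside the lists by the distance between their pairs of log2 ratios. The nearest genes were TCAF1 with ratios of 0.238 in OR1 and 0.577 in OR2, ATL1 with 0.237 and 0.572, CAV2 with 0.228 and 0.585, PRDM8 with 0.232 and 0.625 and RASEF with 0.255 and 0.572. With 3 arrays, this likeness rests on 2 ratios per gene.

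The genes around each member were examined for the ratios of their own probes within 250 kb on the same chromosome. Of 37 genes near MUC1, 32 were measured, and the median of their log2 ratios was -0.26 for OR1 and -0.25 for OR2. That of all genes measured on all 3 arrays was 0.03 and -0.05. None of the 32 was down-regulated in both lines. THBS3, a thrombospondin gene whose probe lies 6.6 kb away, was up-regulated in both with ratios of 2.31 and 2.21. Over all genes, 6.32% were down-regulated in both lines and 5.09% up-regulated in both. The counts near each member were not tested against these shares. TRIM46, at 1.77 kb, had ratios of 0.44 and 0.57. Near MUC4, 11 of 22 genes were measured, and APOD, a lipid-binding apolipoprotein gene, was down-regulated in both lines with ratios of at most 0.20 and 0.19. Near MUC16, 1 of 8 genes was measured, ZNF558, with ratios of 2.15 and 2.60, opposite in direction to MUC16. Near CEACAM1, 9 of 13 genes were measured, and none was past the ratio in both lines, with medians of 0.16 and 0.07 on the log2 scale. Near MUC13, 7 of 8 genes were measured. KALRN was down-regulated in both lines (0.045 and 0.159) and HEG1 up-regulated in both (3.33 and 2.92). Near CEACAM5, 10 of 21 were measured, and 1 transcript without a gene symbol was down-regulated in both, with ratios of 0.151 and 0.252. Most neighbours of MUC4 are also neighbours of MUC20, and those of CEACAM5 of CEACAM6, so these windows are not independent.

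**Figure D3:**
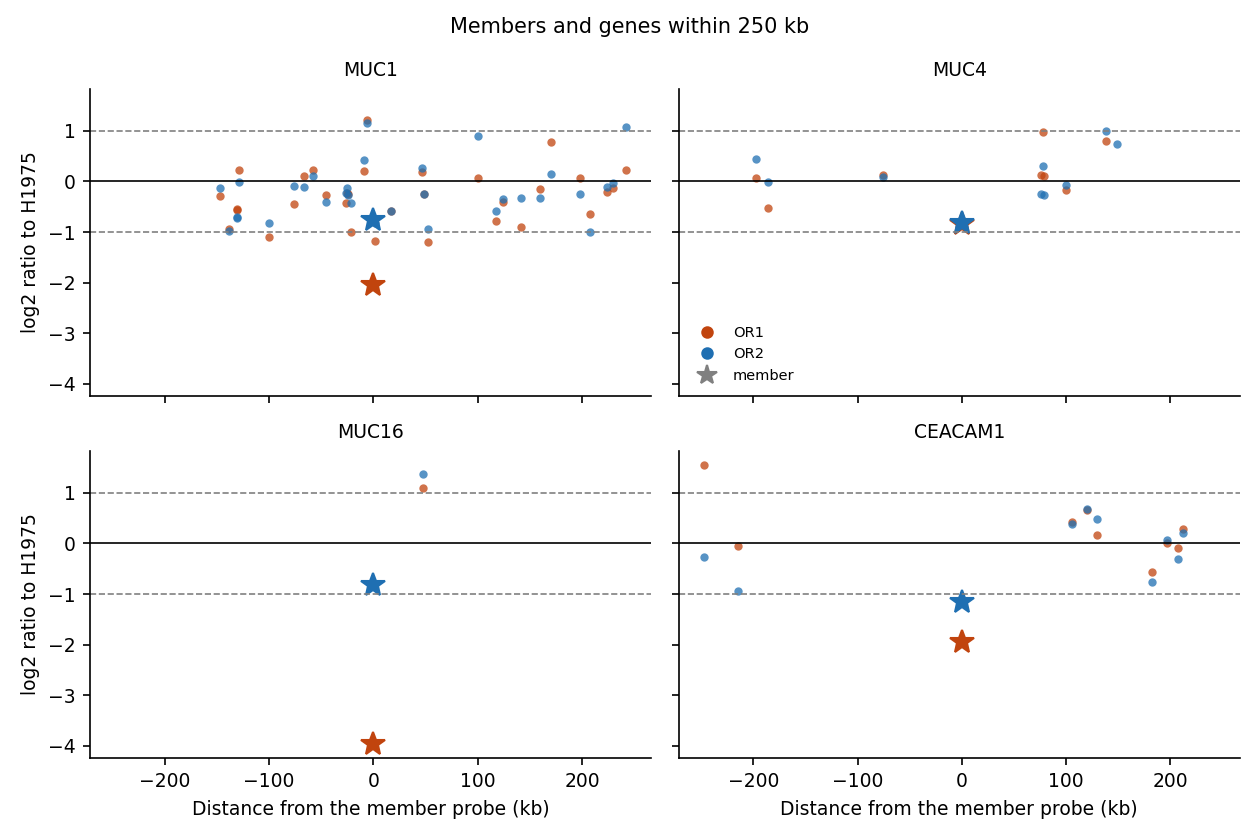
Log2 ratio to H1975 of MUC1, MUC4, MUC16 and CEACAM1 (stars) and of measured genes within 250 kb (dots) against distance from the member probe in kb, with dashed lines at ratios of 2 and 0.5. Neighbours are not drawn in a line where their ratio is a bound, as for APOD near MUC4 in OR1. The stars of MUC1 and MUC16 in OR1 and of CEACAM1 in OR1 lie below all of their neighbours, whereas ZNF558 beside MUC16 lies above a ratio of 2 in both lines.

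Upstream sequence was taken from RefSeq (GRCh38.p14), which held 7 of the 8 genes, all but MUC20, as the 250 bases before the start. The promoters of MUC1 and CEACAM1 are shown as those of a mucin down-regulated in OR1 and of the gene past the ratio in both lines. Capitals mark the letters CACCTG (an E-box, which EMT repressors can bind) and GGGCGG or its complement (a GC-box).
MUC1 chr1:155192916-155193165, minus strand: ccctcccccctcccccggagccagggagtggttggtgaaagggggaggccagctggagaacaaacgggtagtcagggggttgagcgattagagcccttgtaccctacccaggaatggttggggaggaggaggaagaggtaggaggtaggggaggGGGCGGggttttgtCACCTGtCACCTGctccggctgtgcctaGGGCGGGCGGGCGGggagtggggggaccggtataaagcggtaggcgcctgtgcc
CEACAM1 chr19:42528482-42528731, minus strand: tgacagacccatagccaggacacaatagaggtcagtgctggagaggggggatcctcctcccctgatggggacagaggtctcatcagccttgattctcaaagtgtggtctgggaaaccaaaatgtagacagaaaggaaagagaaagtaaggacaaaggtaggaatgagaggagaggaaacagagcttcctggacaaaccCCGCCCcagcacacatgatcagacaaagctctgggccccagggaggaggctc
On both strands, CACCTG was found in 2 of the 7 promoters, at 82 and 75 bases before the start of MUC1 and at 74 before that of CEACAM5, and in 17.5% of 27305 promoters. GGGCGG was found in 5 of 7 and in 42.3% of all, with 4 matches in MUC1, of which the last 3 overlap. TGTTTAC, a FOXA motif, and AACCNGTT, a GRHL motif, were found in none of the 7, and in 2.98% and 1.48% of all. TGACTCA, the AP-1 motif, was found in MUC13 alone and in 4.16% of all. These matches describe letters in the window and are not evidence of binding.

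The remaining mucins and mucin-like glycoproteins moved in both directions. Of 6 other membrane mucins, MUC3A alone was measured, at 105, 131 and 104 in H1975, OR1 and OR2, with ratios of 1.42 and 0.964, and its side of 1 depended on the scaling. Of 6 mucin-like surface glycoproteins, 4 were measured and 2 were up-regulated in both lines, beside 5.09% of all genes. PODXL, the sialomucin podocalyxin, read 1972, 4159 and 5753, with ratios of 2.41 and 2.84, and SELPLG, the selectin ligand PSGL-1, read 107.02, 257 and 254, with ratios of 2.74 and 2.31. With spike-in scaling neither call held, and SELPLG also lost its call with normexp correction. A dimmer SELPLG probe had ratios of 1.88 and 2.66. MCAM had ratios of 0.588 in OR1 and 0.281 in OR2. Of 7 secreted mucins, 3 were measured, and 1 of 3 MUC5AC probes read 20.2, 39.4 and 52.2 (ratios of 2.22 and 2.51, a call lost under 4 alternatives), whereas another MUC5AC probe had ratios of at most 0.726 and at most 0.686. MUC2 had ratios of 1.57 and 1.17 and MUC6 of 0.725 and 0.882.

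Among 9 other CEACAM genes, 2 were measured, CEACAM19 with ratios of 0.968 and 0.675 and CEACAM20 with 1.17 and 0.844, and neither was past the ratio. The pregnancy-specific glycoprotein (PSG) genes belong to the same family and lie on the same arm of chromosome 19. Of 10 in the list, 8 were on the array and 7 were measured. Of these 7, 5 were up-regulated in OR1 and none in OR2, while PSG5 was down-regulated in OR2. Over all genes, 8.95% were up-regulated in OR1 and 7.47% in OR2, and 8.41% were down-regulated in OR2. With spike-in scaling, 2 of the 7 (PSG6 and PSG9) were past the ratio in OR1. Their median ratio was 2.79 in OR1 and 0.727 in OR2, beside 1.02 and 0.964 for all genes. PSG9 had ratios of 4.54 and 0.727 and PSG6 of 3.23 and 0.979. No PSG probe shared a run of 20 bases with a probe of another gene, but PSG transcripts are closely alike, and cross-reading was not tested.

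Enzymes that build O-glycans on mucins were lower in part. GALNT enzymes attach the first sugar, and of 17, 14 were measured, 4 were down-regulated in both lines and none was up-regulated in both. Over all genes, 6.32% were down-regulated in both lines and 5.09% up-regulated in both. GALNT3 read 485 in H1975 and was not well above background in either resistant line, which bounds its ratios at 0.027 for OR1 and 0.025 for OR2 at most. GALNT12 read 328 in H1975, with ratios of at most 0.040 in OR1 and 0.053 in OR2, and GALNT15 read 211, with ratios of at most 0.062 and at most 0.058. GALNT6 read 1389, 393 and 446, with ratios of 0.323 and 0.313. In the other direction, GALNT16 was up-regulated in OR1 alone, at a ratio of at least 3.87, beside 8.95% of all genes. GALNT9 had ratios of 1.68 and 1.88. The median ratio was 0.806 in OR1 and 0.917 in OR2 over the 8 GALNT genes measured on all 3 arrays, which leave out GALNT3, GALNT12 and GALNT15. With bounds taken at their value, it was 0.642 and 0.728 over the 13 with a ratio in each line. All genes taken the same way had 1.03 and 0.961. The 13 are not the same genes, since GALNT16 had a ratio in OR1 alone and GALNT4 in OR2 alone.

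Of 10 enzymes that extend the chain, 7 were measured and 4 were down-regulated in both lines, beside 6.32% of all genes. ST6GALNAC2, a sialyltransferase, read 977, 84.4 and 192, with ratios of 0.098 and 0.191. ST3GAL1, which caps core 1 chains with sialic acid, read 283, 63.0 and 43.9, with ratios of 0.254 and 0.151. GCNT1, which makes the core 2 branch, read 355, 55.1 and 99.3, with ratios of 0.177 and 0.272. B3GNT3 read 3269, 967 and 1637, with ratios of 0.337 and 0.487, and its call was lost under 6 alternatives. C1GALT1, the core 1 synthase, had ratios of 0.655 and 0.705, and its chaperone C1GALT1C1 of 1.03 and 0.992. B3GNT6, measured in H1975 alone, had ratios of at most 0.515 and at most 0.487. The median ratio was 0.293 in OR1 and 0.364 in OR2 over the 6 enzymes measured on all 3 arrays, and 0.337 and 0.487 with B3GNT6 at its bound.

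**Figure D4:**
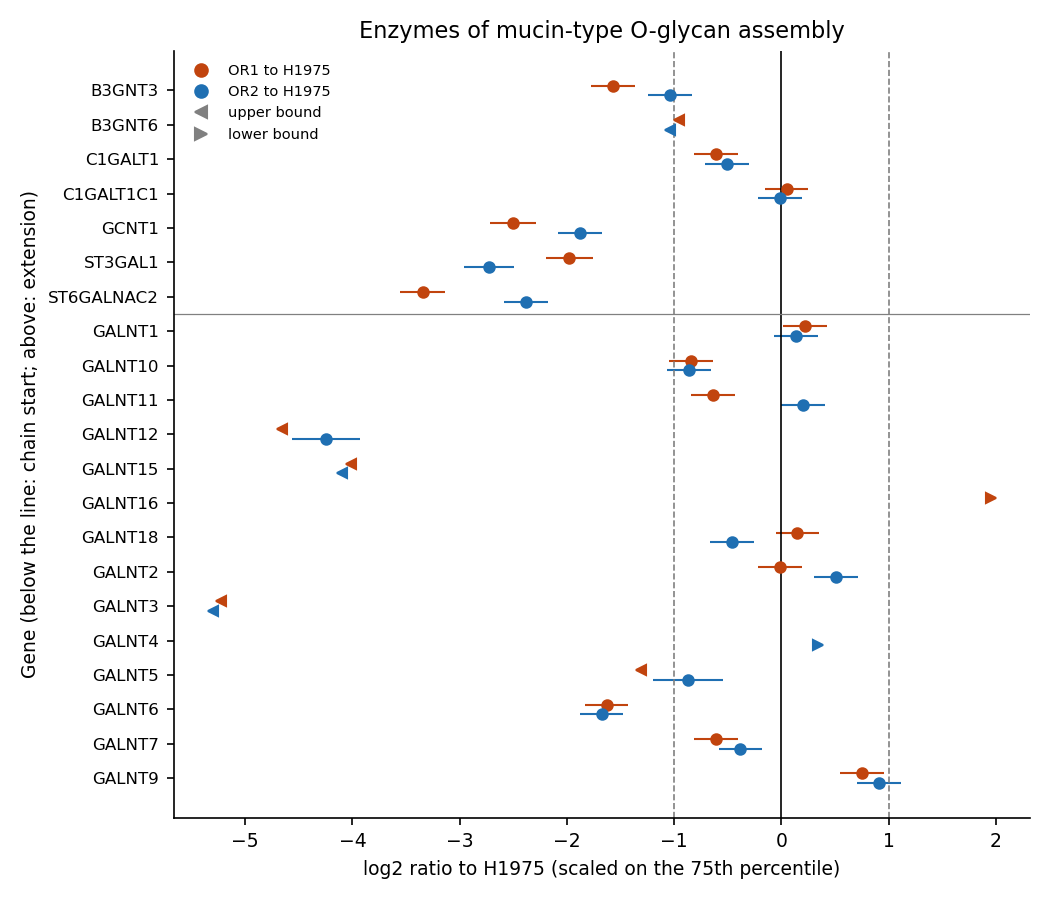
Log2 ratio to H1975 of the measured O-glycan enzymes, with bars for the technical SD, triangles for bounds, dashed lines at ratios of 2 and 0.5, and enzymes that start the chain below the horizontal line. GALNT3, GALNT12 and GALNT15 lie farthest to the left, and C1GALT1 and C1GALT1C1 lie inside the dashed lines in both OR1 and OR2.

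Of 10 surface partners of mucins and CEACAM proteins, 9 were measured. MSLN, mesothelin, was dim in H1975 (2.70) but read 48.1 in OR1 and 60.8 in OR2, with ratios of at least 4.37 and at least 4.71 (a call lost with normexp correction), whereas its partner MUC16 was lower in both lines. ERBB3 was down-regulated in both lines by both of its measured probes, which differed in size. A_33_P3211569 had ratios of 0.179 and 0.230, and A_23_P349416 read 824, 3.94 and 17.9, with ratios of at most 0.0158 in OR1 and 0.0212 in OR2. EGFR had ratios of 0.483 and 0.593, ERBB2 of 0.556 and 0.597, MET of 0.432 and 0.582 and LGALS3, a galectin that binds MUC1 glycans, of 0.322 and 0.599. Of 4 proteases known to shed membrane mucins and other ectodomains, none was past the ratio in either line, with ADAM10 at 1.06 and 0.805 and ADAM17 at 0.927 and 0.936.

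Of 16 transcription factors of epithelial and secretory cells, 11 were measured and 4 were down-regulated in both lines, beside 6.32% of all genes. OVOL1, an epithelial repressor of mesenchymal genes, read 1333 in H1975, with ratios of at most 0.010 and at most 0.009. FOXA2 read 720, with ratios of at most 0.018 in OR1 and 0.043 in OR2. GRHL2, which maintains epithelial junction genes, read 467, with ratios of at most 0.028 and at most 0.026, and a dimmer probe bounded them at 0.253 and 0.239. SPDEF, a factor of mucus-secreting cells, read 29.8, with ratios of at most 0.444 and at most 0.468, and lost its call with normexp correction. ELF3 had ratios of 0.543 and 0.839 and KLF5 of 0.681 and 1.08. The median ratio was 0.831 in OR1 and 1.02 in OR2 over the 6 factors measured on all 3 arrays, which leave out the 4 down-regulated ones, and 0.681 and 0.839 over all 11 with bounds taken at their value, so that the median in OR2 changed sides of 1.

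**Figure D5:**
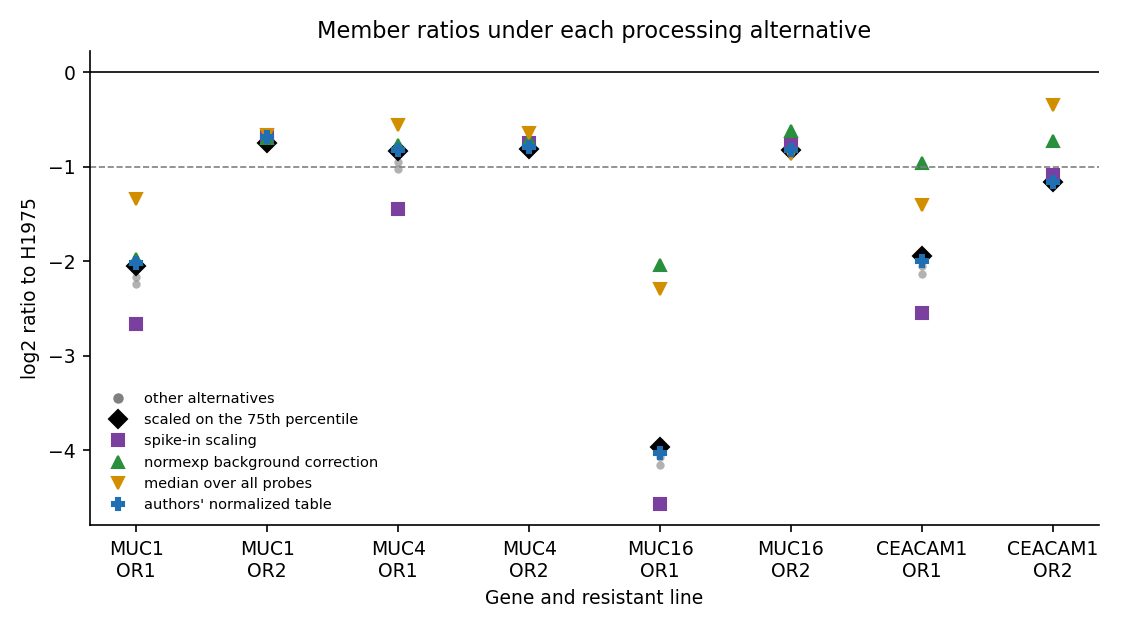
Log2 ratio to H1975 of MUC1, MUC4, MUC16 and CEACAM1 in OR1 and OR2 under each processing alternative, with a dashed line at a ratio of 0.5. Every point lies below a ratio of 1, and CEACAM1 rises above the dashed line with normexp correction in both lines and with the median over its probes in OR2.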

How the data were processed

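Each of the 3 lines was measured by the authors on 1 Agilent human array with a single dye. The deposited scanner files hold, for each spot, a background-corrected intensity, its error and background calls, made with Agilent Feature Extraction (9.5.1.1 per the labels, 10.7.1.1 per the file headers). The authors also deposited a table of normalized intensity values, used as an alternative. Arrays were assigned to lines from the labels. Control and outlier spots were left out (45, 61 and 46 outliers in H1975, OR1 and OR2), log2 values of repeated spots were averaged, and the 75th percentile was subtracted. The probe with the highest mean stood for a gene in lists, and all probes were kept for the 8 genes. The ratios of 2 and 0.5 follow the methods. The members and gene lists were chosen with earlier results of these data known. From each list, genes past the ratio in both lines were named, at most 5 per direction, and other genes named were chosen after their values were seen. MUC1 was taken for the search of like patterns by its mean intensity, a rule for choosing 1 gene and no comparison of levels. Precision is limited by the number of arrays, 1 per line, and nothing was tested. The scanner files place probes on hg19, for which no exon annotation was used. The alternatives were 5 scalings, normexp correction, the authors' table, 2 background filters, outlier spots kept, a median over probes and ratios of 4 or 1.5. Normexp correction added an offset of 50 to each spot. Counting was tested on simulated data in which only brighter genes were changed, by a fixed fold up or down. Dim genes and ratios near 0.5 were not covered by that simulation. Python 3.11.15, numpy 2.4.6, pandas 2.3.3, matplotlib 3.10.9, R 4.3.3 and limma 3.58.1 were used.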

Additional observations from a re-analysis of the deposited data

Results flagged for a closer look

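Genes of the lists are given here whose ratios lay on opposite sides of 1 in OR1 and OR2, each by more than its technical SD. Whether OR1 and OR2 differ was not tested, since each had 1 array. For PSG9 the ratio was 4.54 in OR1 but 0.727 in OR2. PSG8 had ratios of 2.93 and 0.826, PSG2 of 2.36 and 0.703 and PSG5 of 1.92 and 0.261. CEACAM20 had ratios of 1.17 and 0.844, with OR1 below 1 under spike-in scaling. Among O-glycan enzymes, GALNT11 had ratios of 0.642 and 1.15. Among transcription factors, KLF4 had ratios of 0.815 and 1.29. Among cell type markers, NKX2-1 had ratios of 0.252 and 1.36, NAPSA of 0.77 and 1.57, CDH5 of 0.664 and 1.21, and COL1A1 of 1.45 and 0.183, with OR1 below 1 for COL1A1 under spike-in scaling.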

How the results depend on the processing

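Over 11 alternatives, 88 ratios of the 4 measured genes were recomputed: 76 moved by less than the technical SD, 12 by more, and none was above 1. The 2 background filters could not move these ratios, since the 4 probes were well above background on all 3 arrays. Keeping outlier spots left them almost unchanged. The 76 therefore overstate how stable the ratios were. In OR1 the ratios ranged from 0.158 to 0.395 for MUC1, 0.368 to 0.681 for MUC4, 0.0423 to 0.244 for MUC16 and 0.171 to 0.515 for CEACAM1. In OR2 they ranged from 0.586 to 0.630, 0.561 to 0.640, 0.550 to 0.650 and 0.442 to 0.786. The count of members down-regulated in both lines, 1 as reported, was 0 with normexp, the median over probes or a ratio of 4, and 4 with a ratio of 1.5. Over all genes, 1141 were up-regulated in both lines and 1417 down-regulated. Spike-in scaling, on 7 probes, gave 591 and 1584 and shifted the all-gene median of OR1 by -0.60 (log2), against -0.19 without scaling and -0.11 for median scaling. Normexp gave 461 and 705, no background filter 2057 and 2437, a ratio of 4 265 and 422, and a ratio of 1.5 2573 and 2957, while requiring all 3 arrays left 874 down-regulated. Of other mucin and CEACAM genes, 3 were up-regulated and 0 down-regulated; up-regulated were 0 under spike-in scaling, 1 under normexp and 0 at a ratio of 4, and down-regulated was 1 with spike-in scaling and 1 with a ratio of 1.5. Of O-glycan enzymes, 8 were down-regulated and 0 up-regulated; down-regulated were 5 when all 3 arrays were required and 4 with a ratio of 4, and up-regulated was 1 without the background filter and 1 with a ratio of 1.5. An added offset of 50, as in normexp, brings ratios of dim probes nearer to 1 by arithmetic. How much of the normexp changes came from it was not tested. Apart from filters and thresholds, the cause of the other changes was not tested. No paired analysis was possible because each line had 1 array.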
